A study of Arabidopsis thaliana with 102 samples.

Results

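The regions described here are the ChIP-seq peaks of bZIP28 that overlap a peak of bZIP60 by at least 1 base. There were 328 such peaks among 676 bZIP28 peaks listed in seedlings recovering from ER stress. They were chosen by their deposited positions, setting the chromosome, start and end of each bZIP28 peak at 0, 12 and 24 h of recovery against the bZIP60 peaks of all 3 time-points pooled. Shared peaks made up 84 of 130 bZIP28 peaks at 0 h, 55 of 92 at 12 h and 189 of 454 at 24 h, which is 64.6%, 59.8% and 41.6% of each list. The other 348 bZIP28 peaks lay away from bZIP60. Seen from the other protein, 242 of 467 bZIP60 peaks overlapped a bZIP28 peak. Because the overlap chose these peaks, it is given as a description and is no result of a test.

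The seedlings were 5 days old when they were held for 6 h on 500 ng/mL tunicamycin (Tm), an inhibitor of protein N-glycosylation, or on DMSO alone, the mock treatment, and were then moved to medium free of Tm. ChIP-seq of Tm-treated whole seedlings used a line with GFP-bZIP28 under the 35S promoter in the Col-0 background, which keeps its own bZIP28 gene, and a line with GFP-bZIP60 under the bZIP60 promoter in a bzip60 knockout. Both were precipitated with an antibody against GFP, and 2 replicates per time-point were merged into 1 peak list by the authors, so a peak carries no replicate values. RNA-seq compared Tm with DMSO in *bzip28-2* and *bzip60-2*, insertion mutants in the Col-0 background, and in Col-0, at 0, 12 and 24 h of recovery, with 3 replicates of 12 pooled whole seedlings in each of 18 groups.

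bZIP28 and bZIP60 are basic leucine zipper transcription factors of the unfolded protein response (UPR). bZIP28 is held in the ER membrane and is moved to the Golgi and cut there when unfolded proteins accumulate, which frees its DNA-binding part for the nucleus. bZIP60 is made in its active form after the kinase and nuclease IRE1 splices its mRNA. Elements known for the UPR are ERSE-I, the bases CCAAT and CACG held 10 bases apart, ERSE-II, ATTGG and CACG held 2 bases apart, and UPRE-I, TGACGTGG.

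Merged over time-points, the shared peaks formed 196 regions, of which 154 lay in single-copy sequence and 42 in repeated sequence, meaning that at least 50% of their windows of 50 bases occurred more than once in the genome. ERSE-I stood within the central 300 bases of 28 of the 154 single-copy regions (18.2%), and ERSE-I, ERSE-II or UPRE-I, here also in the form TGACGTGA, within 35 of them. The stretches below show the elements of regions at genes whose response is described further on, because they are the known UPR elements that part of these regions held. Each is taken from the TAIR10.1 reference of RefSeq, lies outside annotated exons and is written 5′ to 3′ on the strand named, with the fixed bases of the element in capitals. For ERSE-I:

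BIP3, chr1:2931916-2931958, plus strand: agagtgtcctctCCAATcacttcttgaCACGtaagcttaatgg
BIP3, chr1:2931994-2932036, plus strand: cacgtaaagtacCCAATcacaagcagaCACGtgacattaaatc
CRT1, chr1:21092747-21092789, plus strand: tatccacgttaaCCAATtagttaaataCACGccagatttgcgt
HSP70-17, chr4:9376629-9376671, minus strand: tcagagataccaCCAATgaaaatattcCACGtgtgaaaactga
PDIL1-2, chr1:29126572-29126614, plus strand: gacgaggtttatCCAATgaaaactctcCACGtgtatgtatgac
HRD3A, chr1:6282154-6282196, plus strand: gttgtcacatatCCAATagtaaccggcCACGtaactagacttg
UTR3, chr1:4913185-4913227, minus strand: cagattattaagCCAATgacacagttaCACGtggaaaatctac
SEC61B3, chr3:22375937-22375979, plus strand: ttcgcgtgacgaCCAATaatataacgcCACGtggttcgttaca
SEC61B3, chr3:22375978-22376020, plus strand: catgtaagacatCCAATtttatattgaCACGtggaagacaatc
ECA4, chr1:2374949-2374991, minus strand: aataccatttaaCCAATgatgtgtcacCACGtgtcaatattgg

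For UPRE-I, with all of its bases in capitals:

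SAR1B, chr1:21088604-21088635, plus strand: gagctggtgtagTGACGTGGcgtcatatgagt
CRT1, chr1:21092788-21092819, plus strand: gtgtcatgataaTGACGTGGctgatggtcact
SHD, chr4:12556085-12556116, plus strand: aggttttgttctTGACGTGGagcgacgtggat
ECA4, chr1:2374906-2374937, plus strand: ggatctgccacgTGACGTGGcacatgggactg

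*BIP3* and *SEC61B3* were the regions with 2 ERSE-I, and in both the copies pointed the same way. In 29 of 30 matches of ERSE-I (96.7%) the base after CACG was T, and *CRT1* held the other base. The same base followed 85.8% of 267 matches in all promoters. The second base after CCAAT was A in 86.7% of the matches, against 70.4% in all promoters. The base just before CACG was C in 63.3% of the matches and 45.7% of those in all promoters. The median distance of a match from the centre of its bZIP28 peak was 26 bases, and 20 of the 30 (66.7%) lay within 50 bases of the centre, a stretch that holds 33.3% of the window.

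The same search, on both strands, found ERSE-I in 7.07% of 283 single-copy bZIP28 regions away from bZIP60, in 5.15% of 194 bZIP60 regions away from bZIP28, in 0 of 254 windows 2 kb to the sides of the shared regions, and in 0.712% of 37897 annotated promoters. UPRE-I was in 9.09% of the shared single-copy regions, 3.89% of those of bZIP28 away from bZIP60, 6.19% of those of bZIP60 away from bZIP28 and 1.32% of promoters. The G-box CACGTG was in 19.5%, 14.1%, 22.7% and 6.46% of the same sets, in that order. CACG within ERSE-I can be part of a G-box, and UPRE-I can overlap ERSE-I, so these shares are not independent. UPRE-III, TCATCG, was in 9.09% of the shared regions and 9.27% of promoters, and CCAAT alone in 60.4% of the shared regions and 50.5% of promoters. ERSE-II was found once in the shared regions, at *BIP1*. All 42 regions in repeated sequence and all 21 regions of the 3′ UTR class were without ERSE-I.

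**Figure D1:**
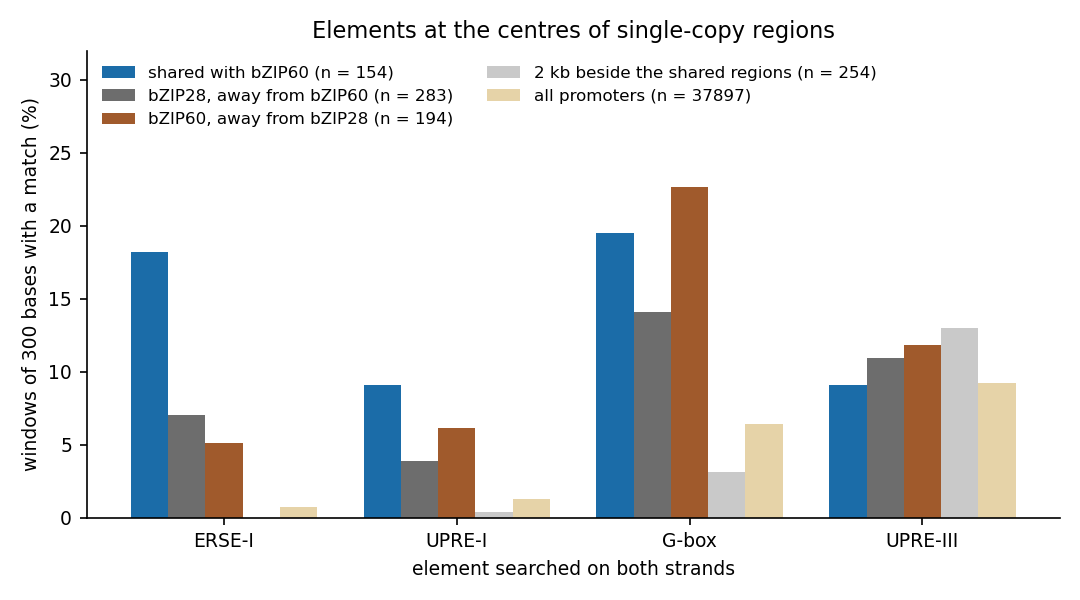
Share of windows of 300 bases (%) with ERSE-I, UPRE-I, G-box or UPRE-III, in single-copy regions shared with bZIP60 (blue), regions of each protein away from the other, windows 2 kb beside the shared regions and all promoters. ERSE-I stood in 18.2% of the shared regions and in at most 7.07% of the other sets, while UPRE-III was at 9.09% to 13.0% in every set.

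The deposited score of a peak is the signalValue of MACS2, an enrichment over input. The median width of the shared peaks was 635 bases and their median score was 4.57, against 343 bases and 3.32 for bZIP28 peaks away from bZIP60. Wider peaks have more bases to overlap with, and the part of width in these shares was not tested. The smallest overlap was 153 bases, at AT3G33076 (score 4.22), followed by 158 bases at AT5G32312 and 159 bases at AT1G34680 and AT5G09970. The nearest peaks outside lay 28 bases from a bZIP60 peak, beyond the end of *PSK4* (score 1.92), and 38 bases from one, at AT1G59870 (score 2.45). No peak fell between these values, and 215 of the 328 (65.5%) lay wholly inside a bZIP60 peak.

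Of the shared peaks, 94 (28.7%) were in repeated sequence, against 30 of 348 (8.62%) of those away from bZIP60. By time-point the repeated ones were 23, 27 and 44. Chromosome 2 held 52 of the 94, where 31 lay in the insertion of mitochondrial sequence near its centromere, and chromosome 4 held 20. The highest scores among them were 7.54 at AT2G01010, 7.23 at AT3G41761 and 7.18 at AT2G01008. AT2G01010 is an annotated ribosomal RNA gene and the others lie near such genes, and the authors' mapping with Bowtie dropped reads that match more than 3 places and placed the others at 1 place each. The widest of these peaks spanned 106988 bases. The genes assigned to the repeated peaks gave 9 that could be tested, of which 0 were called after Tm in Col-0 at any time-point with limma (0, 0 and 2 at an unadjusted p under 0.05). Of all genes tested 0.627%, 7.18% and 7.39% were called higher at 0, 12 and 24 h, so that 0 of 9 is near the background.

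**Figure D2:**
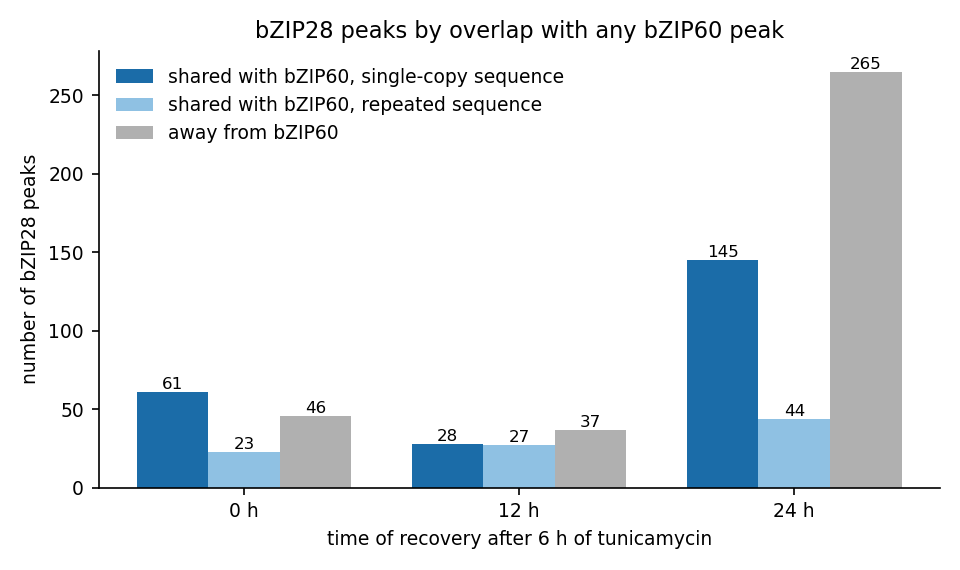
Number of bZIP28 peaks at 0, 12 and 24 h of recovery that were shared with bZIP60 in single-copy sequence, shared in repeated sequence, or away from bZIP60. The shared single-copy peaks numbered 61, 28 and 145, the shared repeated ones 23, 27 and 44, and those away from bZIP60 46, 37 and 265.

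In single-copy sequence 184 of the 234 shared peaks (78.6%) were placed by the authors in promoters up to 1 kb, against 185 of 318 (58.2%) of the bZIP28 peaks away from bZIP60. A further 24 (10.3%) were in the 3′ UTR class, 12 were distal intergenic and 8 were in promoters at 1 to 2 kb. In single-copy sequence 52 of the 154 were in 2 bZIP28 lists and 10 in all 3 (40.3% in at least 2), against 35 and 0 of 283 regions away from bZIP60 (12.4%). These shares were not tested, since a region counted over time-points comes from the same line and antibody.

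The time-points of the proteins split the single-copy regions into kinds. The largest held 45 regions listed for bZIP28 at 24 h alone and for bZIP60 at 24 h alone. The next held 32 regions listed for bZIP28 at 0 and 24 h and for bZIP60 at 0 h alone, and another 26 were listed for bZIP28 at 24 h alone and for bZIP60 at 0 h alone. ERSE-I was in 0 of the 45, 14 of the 32 (43.8%) and 6 of the 26. The 45 late regions had a median score of 4.23 for bZIP28 and 4.74 for bZIP60, with median widths of 699 and 1974 bases. The 32 regions of 0 and 24 h had 7.44 and 4.04, with widths of 566.5 and 650.5 bases. Of single-copy regions with a bZIP28 peak at 0 h, 35.6% of 59 held ERSE-I, against 7.37% of 95 without one.

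The peak scores of bZIP28 were higher at 24 h than at 0 h in most single-copy regions. Among 52 such regions listed at both, the median score was 8.74 at 24 h and 5.06 at 0 h, the score was higher at 24 h in 49, and the median ratio was 1.52. The rise was not steady. Of 11 single-copy regions listed at 0 and 12 h, 4 were higher at 12 h, with a median ratio of 0.557. Of 19 listed at 12 and 24 h, 10 were higher at 24 h, with a median ratio of 1.03. *SHD*, which encodes the HSP90 of the ER, had the highest score of all shared peaks, 10.7 at 0 h, 5.97 at 12 h and 17.2 at 24 h. *CNX1*, a calnexin, followed with 11.8, 5.14 and 16.1. In repeated sequence 8 of 16 regions were higher at 24 h, with a median ratio of 1.02. For bZIP60 the single-copy regions were higher at 24 h than at 0 h in 13 of 24, and the repeated ones in 16 of 17 with a median ratio of 1.73. Scores come from 1 merged list per time-point, so no spread between replicates could be set against these differences.

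**Figure D3:**
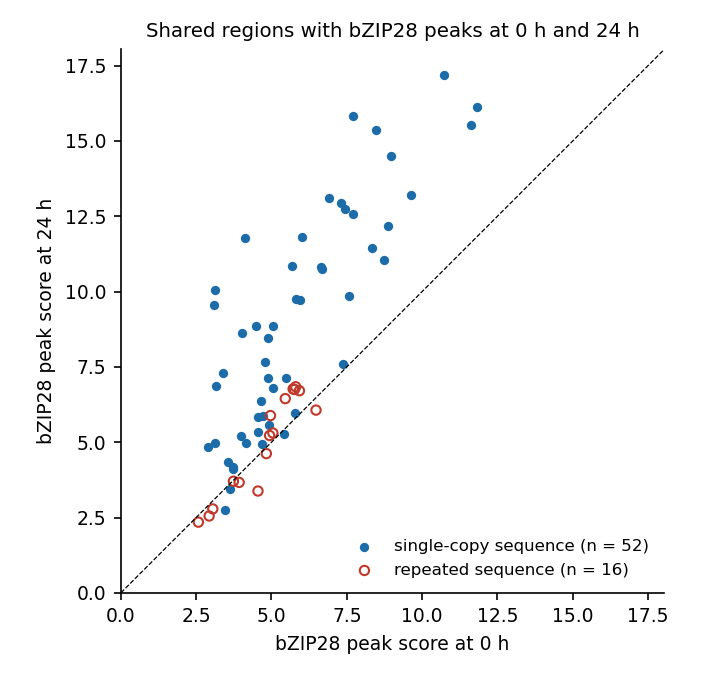
bZIP28 peak score (MACS2 signalValue) at 24 h against 0 h in shared regions listed at both, for single-copy sequence (filled, n = 52) and repeated sequence (open, n = 16), with the dashed line at equal scores. Of the single-copy regions 49 lie above the line, and of the repeated ones 8.

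Where both proteins had a peak at the same time-point in single-copy sequence, bZIP28 had the higher score in 41 of 55 regions at 0 h, 12 of 13 at 12 h and 28 of 73 at 24 h. The scores of the proteins had a Spearman correlation of 0.36 over the 55 regions at 0 h and 0.35 over the 73 at 24 h. Over the 13 regions at 12 h it was 0.87. All these regions share the antibody and input design. The bZIP60 peak was the wider one for 46 of 57 bZIP28 peaks at 0 h and 71 of 76 at 24 h, when the medians were 689 bases for bZIP28 and 1862.5 for bZIP60. Of shared single-copy peaks at 24 h, 1 of 145 for bZIP28 and 18 of 73 for bZIP60 covered a gene from end to end. At the gene of bZIP60 itself, the bZIP28 peak was 503 bases wide and the bZIP60 peak up to 3450. The GFP-bZIP60 line carries a transgene with this promoter, so signal at this gene cannot be told apart from that of the transgene.

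Single-copy regions on at least 4 of the 6 lists numbered 23. They included the chaperone genes *SHD*, *CNX1*, *SDF2*, *CRT2*, *BIP3* and *ERdj3A*, the signal peptide peptidase gene *SPP*, *SAR1B*, bZIP60, the calcium pump gene *ECA4*, the GATA factor genes *GATA1* and *GATA5*, and the polyubiquitin gene *UBQ10*. The 3 regions on all 6 lists were at AT2G16586, AT2G08986 and AT5G31804, and none of them held ERSE-I. At their highest bZIP28 peaks 46.8%, 47.6% and 41.4% of the windows occurred more than once in the genome, in that order. These 3 regions were thus partly repeated and counted as single-copy because they lay under the limit set for repeated sequence. The group of 23 regions was counted after the lists were seen. Genes named from it beyond those on the gene lists and the 5 highest scores were chosen after their values were seen.

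For the RNA, genes were taken from shared peaks outside repeated sequence that the authors placed in promoters up to 1 kb, called shared promoter peaks from here on. These were 117 genes, and the test took the 101 that reached more than 1 FPKM in some library. The class is the authors' annotation, and the centre of a peak in it can lie more than 1 kb from the gene's start. The highest peak at *UBQ10* was centred 1936 bases after the start and that at AT4G36640 1498 bases before it. The highest peak at *SHD* was centred 6 bases before the start. A gene was called where limma on log2(FPKM + 1), across all genes, gave a Benjamini-Hochberg adjusted p under 0.01 and a log2 fold change beyond 1 in either direction. In Col-0, 42 were higher after Tm at 0 h, 62 at 12 h and 59 at 24 h, while of all genes tested 0.627%, 7.18% and 7.39% were called higher. The median log2 fold change of the 101 was 0.87, 1.87 and 1.41, against 0, 0.08 and 0.04 over all genes. AT5G64120 was the 1 gene that fell, at 0 h. At 0 h the count of 43 genes called in either direction was 16 without Tm replicate 3, 24 without Tm replicate 2, 29 without DMSO replicate 2 or 3, 31 without Tm replicate 1 and 39 without DMSO replicate 1. Whole seedlings were measured, so a change in RNA per cell and a change in the share of cell types cannot be told apart, and the summed FPKM of 3 shoot marker genes ran from 8615 to 24296 after Tm and from 20933 to 39169 after DMSO in Col-0, and that of 3 root markers from 16.6 to 37.0 and from 29.0 to 44.6. Their part in these counts was not tested.

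Genes of bZIP28 promoter peaks away from bZIP60 gave 18, 41 and 33 higher of 116 tested, and those of bZIP60 away from bZIP28 gave 21, 50 and 42 of 134. For these and the following sets, the shares of all genes called higher in Col-0 were 0.627%, 7.18% and 7.39%. Among the genes of shared peaks, those with ERSE-I, 26 in all, gave 23, 24 and 22, and the others gave 19, 38 and 37 of 75 tested. Those with a peak at 0 h gave 32, 35 and 31 of 46 tested. Across the 101 genes, the bZIP28 score and the log2 fold change in Col-0 had a Spearman correlation of 0.46 at 0 h, 0.48 at 12 h and 0.39 at 24 h, over genes that share the same libraries.

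**Figure D4:**
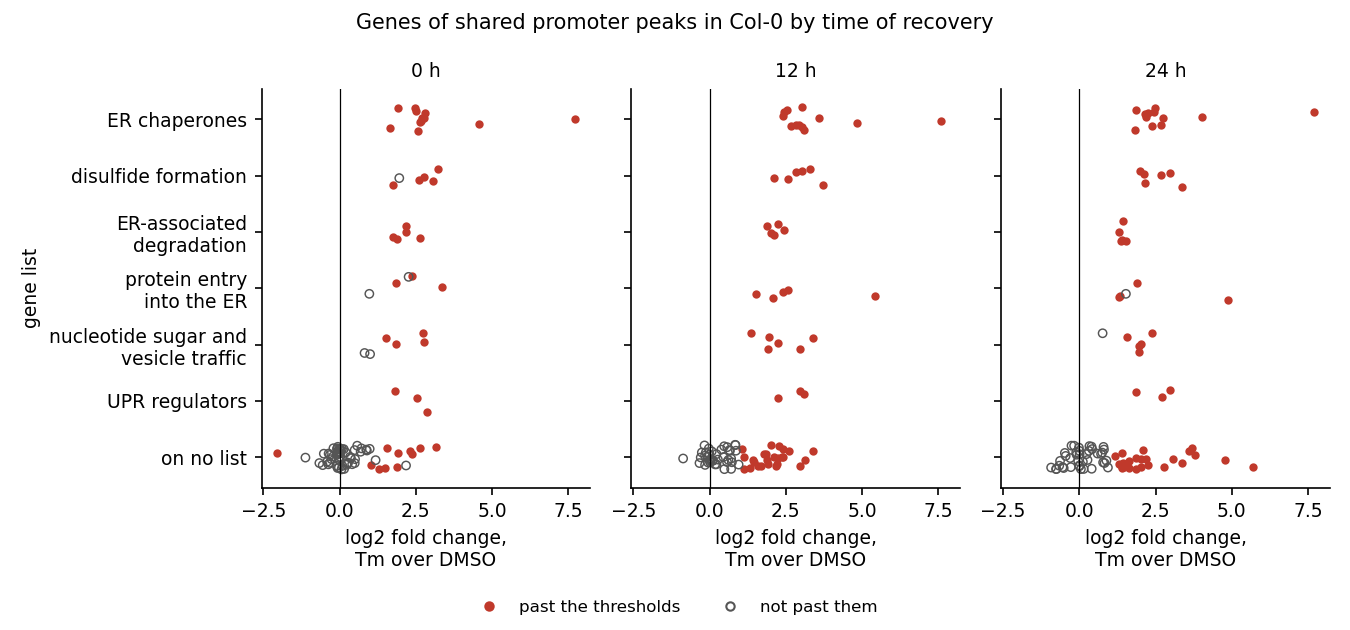
Log2 fold change (Tm over DMSO) in Col-0 at 0, 12 and 24 h of recovery for genes of shared promoter peaks, in rows by gene list, with filled points for genes past both thresholds. All genes on the ER lists lie right of 0 at each time-point, while those on no list spread from -2.07 to 3.16 at 0 h.

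Of 93 genes on 7 lists of ER functions, 37 had a shared promoter peak, and in Col-0 32 of them were called higher at 0 h, 37 at 12 h and 35 at 24 h. The 56 listed genes without a shared peak, 54 of them tested, gave 14, 21 and 18. Over all genes tested 0.627%, 7.18% and 7.39% were called higher at 0, 12 and 24 h. The lists were compiled with these results known, and the ER genes are a long-known target of both factors, so their counts are no independent evidence of a direction.

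Chaperones had the most, with 12 of 17. They were the HSP70s *BIP1*, *BIP2* and *BIP3*, *HSP70-17*, the HSP90 gene *SHD*, the lectin chaperones *CNX1*, *CNX2*, *CRT1* and *CRT2*, and *ERdj3A*, *ERdj3B* and *SDF2*, the last of which encodes a partner of *ERdj3B*. All 12 rose at each time-point in Col-0. *BIP3* changed the most. It had 628, 711 and 625 FPKM after Tm and 2.15, 2.00 and 2.15 after DMSO at 0 h, a log2 fold change of 7.72 ± 0.07 (SE, n = 3 each, adjusted p = 3.4e-06). At 12 h it had 339, 414 and 364 after Tm and 0.948, 0.840 and 1.03 after DMSO. The groups were far apart at both times, and since its mock values are near the pseudocount of 1, the fold change understates the ratio.

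*SHD* had 1575, 1757 and 1582 FPKM after Tm and 308, 245 and 243 after DMSO at 0 h in Col-0 (log2 fold change 2.63 ± 0.12, adjusted p = 0.00074). At 24 h it had 853, 1073 and 942 after Tm and 166, 207 and 178 after DMSO. It remained higher after Tm in every replicate while its level after Tm was lower than at 0 h, and its bZIP28 score was the highest of its 3 time-points. *BIP1* and *BIP2* are near-identical copies whose reads may have been split between them. *BIP2* had 1008, 1150 and 1040 FPKM after Tm and 146, 152 and 154 after DMSO at 0 h. Both also had a second shared region at the 3′ end of the gene, under the same bZIP60 peak, which was 3703 bases wide at *BIP1* and 4024 at *BIP2*.

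For disulfide formation, 6 of 15 had a shared peak, namely *ERO1*, the oxidase that recharges the isomerases, and the protein disulfide isomerase genes *PDIL1-2*, *PDIL1-3*, *PDIL2-1*, *PDIL2-2* and *PDIL2-3*. All 6 passed the thresholds at 12 and 24 h and 5 at 0 h, where *PDIL1-3* had a log2 fold change of 1.96 ± 0.21 (adjusted p = 0.011). *PDIL1-2* had the largest change at 12 h, 3.71 ± 0.06. Of ER-associated degradation, 5 of 11 had one, *DER1*, *DER2.1*, *EBS7*, *HRD3A* and *OS9*, parts of the complex that selects and exports misfolded proteins, and all 5 rose at each time-point. *HRD3A* had 64.2, 66.3 and 62.3 FPKM after Tm and 17.6, 16.6 and 16.6 after DMSO at 0 h. These values did not overlap, although its bZIP28 scores, 3.71 at 0 h and 4.10 at 24 h, were under the median of the shared peaks.

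Protein entry into the ER had 5 of 15, *RAMP4-1*, *RAMP4-2*, *SEC61B3*, *SPP* and *SPC3-like*. *SEC61B3*, a subunit of the translocation channel, had 279, 259 and 310 FPKM after Tm and 5.72, 6.19 and 5.03 after DMSO at 12 h (log2 fold change 5.41 ± 0.10, adjusted p = 1.5e-05). It was the listed gene with the largest change after *BIP3* at 12 h. *RAMP4-2* passed the thresholds at 12 h alone, with log2 fold changes of 2.26 ± 0.34 at 0 h (adjusted p = 0.033) and 1.53 ± 0.32 at 24 h (adjusted p = 0.013). Nucleotide sugar and vesicle traffic had 6 of 12, the UDP-sugar transporter genes *UTR1* and *UTR3*, *SAR1B*, which encodes a GTPase of the vesicles that leave the ER, and 3 genes of p24 cargo receptors. *UTR3* had 135, 161 and 149 FPKM after Tm and 18.8, 21.2 and 24.7 after DMSO at 0 h. *SAR1B*, whose region held UPRE-I and no ERSE-I, rose at 12 h, with 450, 456 and 502 FPKM after Tm and 178, 163 and 209 after DMSO. Its groups did not overlap at 0 or 24 h either, but its log2 fold changes there, 1.00 and 0.76, did not pass the thresholds.

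Of 13 UPR regulators, bZIP60, the membrane-tethered NAC factor gene *NAC062* and the cell death suppressor gene *BI1* had shared peaks, and all 3 rose at each time-point. bZIP60 had 205, 216 and 208 FPKM after Tm and 29.6, 36.9 and 39.4 after DMSO at 0 h. None of the 10 genes of N-glycosylation had a shared peak.

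The other 80 genes of shared promoter peaks were on no list. Of their 64 tested members, 10 were higher at 0 h, 25 at 12 h and 24 at 24 h, and without those with a peak at 0 h the counts were 3, 18 and 19 of 46. Over all genes tested 0.627%, 7.18% and 7.39% were called higher. The highest bZIP28 scores among the 80 genes, promoters up to 1 kb alone, were 11.8 at *ECA4*, 10.8 at *GATA1*, 9.86 at AT4G36640, 9.72 at AT4G29520 and 9.56 at *UBQ10*. *GATA5*, in the class of 1 to 2 kb and so not among these genes, had 11.5. *ECA4* had 54.5, 61.0 and 58.5 FPKM after Tm and 18.2, 21.1 and 20.7 after DMSO at 0 h, and it was called higher at 0 and 12 h. *GATA1* had 52.9, 54.7 and 54.9 after Tm and 33.7, 38.5 and 36.0 after DMSO, without overlap, but its log2 fold change of 0.58 ± 0.06 did not pass the thresholds. *UBQ10* had 758, 799 and 708 after Tm and 681, 843 and 921 after DMSO, which overlapped, and it was called at no time-point. Among the largest changes at 12 h were those of AT4G29520, 3.40, AT3G51980, 3.12, AT5G54860, 2.96, *ZCF37*, 2.61, and AT2G03040, 2.42.

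The 45 late regions, of 24 h alone for both proteins, had 41 genes, 38 of them tested. Of these 0 were higher in Col-0 at 0 h (13 had an unadjusted p under 0.05 with limma in either direction), 19 at 12 h and 20 at 24 h. Of all genes tested 0.627%, 7.18% and 7.39% were called higher, so that 0 of 38 at 0 h is near the background. The 41 genes had a median of 59.8 FPKM after Tm and 21.9 after DMSO at 24 h in Col-0. Over all genes tested the medians were 11.4 and 10.2. The part of this abundance in the peaks was not tested. The genes of the 32 regions of 0 and 24 h gave 21, 23 and 21 of 28 tested promoter genes. The late genes named here were chosen after their values were seen. They included *GSTF6*, a glutathione transferase, *RHL41*, a zinc finger protein of stress responses, the transcription factor genes *ATAF2*, *NAC047* and *ERF-1*, and *PSK4*, a precursor of the growth peptide phytosulfokine. *PSK4* had 18.0, 26.6 and 14.9 FPKM after Tm and 44.7, 43.8 and 41.1 after DMSO at 0 h. At 24 h it had 736, 662 and 794 after Tm and 40.8, 58.9 and 71.1 after DMSO. Its replicates were thus all lower after Tm at 0 h, where the log2 fold change of -1.12 ± 0.21 did not pass (adjusted p = 0.053), and all higher at 24 h, with 3.69 ± 0.21 (adjusted p = 0.00019). *GSTF6* had 7500, 6702 and 9014 FPKM after Tm and 84.4, 240 and 153 after DMSO at 24 h.

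The 3′ UTR class had 21 shared regions, 19 of them listed for bZIP28 at 24 h alone, and *BIP1* and *BIP2* at 0 and 24 h. Single shared peaks in the 3′ UTR class belonged to 22 genes, the regions' 21 and *UBQ10*, whose region is in the promoter class, and gave 2, 8 and 9 higher in Col-0. Over all genes tested 0.627%, 7.18% and 7.39% were called higher at 0, 12 and 24 h. *BIP1* and *BIP2*, which also had shared promoter peaks, were among those called higher at each time-point. The 22 genes were abundant, with a median of 120 FPKM after Tm and 57.3 after DMSO at 24 h in Col-0, against 11.4 and 10.2 over all genes tested. The part of this abundance in the peaks was not tested.

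In the mutants, the tested genes of shared promoter peaks called higher after Tm numbered 41, 63 and 23 of 101 in *bzip28-2* at 0, 12 and 24 h, where 0.938%, 8.65% and 3.93% of all genes were called. In *bzip60-2* they numbered 39, 62 and 57, where 0.512%, 8.08% and 5.36% of all genes were called. Of the 37 listed ER genes, 30, 37 and 12 were called in *bzip28-2*, 32, 37 and 36 in *bzip60-2*, and 32, 37 and 35 in Col-0. At 24 h their median log2 fold change was 1.36 in *bzip28-2*, 1.79 in *bzip60-2* and 2.13 in Col-0. These counts are each set against the DMSO groups of the same genotype and do not by themselves show a difference between genotypes, which was tested on the log2 fold changes of the replicates with limma at an adjusted p under 0.05. Following the methods of the study, each Tm library was set against the DMSO library of the same replicate number. Same-numbered libraries did not deviate together, so calls are also given from a fit that does not match them by number. It uses the genotype by treatment term of limma over all 12 libraries. In *bzip28-2* the summed shoot markers ran from 5340 to 20497 FPKM after Tm and from 22339 to 41095 after DMSO. Its root markers ran from 4.83 to 15.5 and from 19.8 to 37.8. Neither pair of ranges overlapped, while in *bzip60-2* and Col-0 both pairs did. The part of cell types in the differences between genotypes was not tested.

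At 12 h the response of 15 of the 101 differed between *bzip28-2* and Col-0, 11 lower and 4 higher in the mutant, where 3.39% of all genes were called. Without matching by number it was 22, of which 12 were among the 15, and 4.18% of all genes were called. Among the 22, 13 were lower in the mutant and the others higher, the listed gene *NAC062* (0.71) being 1 of the higher ones. The count of 15 moved with every library. Without *bzip28-2* replicate 1 or 2 the count was 0, without replicate 3 it was 2, and without Col-0 replicate 1, 2 or 3 it was 1 each time. The lower ones included 7 of the listed chaperone and folding genes. *PDIL1-3* had 89.9, 84.3 and 73.6 FPKM after Tm in *bzip28-2* and 224, 246 and 227 in Col-0, and the log2 fold change was lower by -1.44 ± 0.07 (SE, adjusted p = 0.0098). *ERdj3B* had 262, 208 and 237 after Tm in *bzip28-2* and 507, 587 and 530 in Col-0, a difference of -1.38 ± 0.13 (adjusted p = 0.020). After DMSO it had 46.2, 52.1 and 49.8 in *bzip28-2* and 41.4, 45.0 and 44.2 in Col-0, so the levels differed the other way in mock-treated seedlings. *CRT2* differed by -1.40, *CNX1* by -1.12, *CRT1* by -1.05, *SHD* by -1.01 and *CNX2* by -0.83. The others lower in *bzip28-2* were *RAMP4-1* with -0.89, AT4G29520 with -1.14, AT1G78915 with -0.49 and AT5G13100 with -0.48, the last named after its value was seen. AT1G78915 and AT5G13100 were not called without matching (adjusted p = 0.062 and 0.16), while the 7 listed genes, *RAMP4-1* and AT4G29520 were.

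The 4 with a larger response in *bzip28-2* at 12 h were AT1G75000 (1.96), *PSK4* (1.08), AT1G65690 (0.77) and *ZCF37* (0.45), all from late regions. Their bZIP28 peaks were centred 1679, 1203, 1746 and 1391 bases after the start of the gene, in that order. *ZCF37* was not called without matching (adjusted p = 0.14). AT1G75000 had 38.6, 42.8 and 47.4 FPKM after Tm in *bzip28-2* and 10.9, 8.01 and 11.4 in Col-0. Its mock values were 2.81, 2.59 and 2.03 in *bzip28-2* and 2.08, 2.93 and 2.203 in Col-0. The levels after Tm thus lay apart between the genotypes, and those after DMSO overlapped.

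Between *bzip60-2* and Col-0, 6 of the 101 were called at 12 h, where 3.46% of all genes were called. The response of bZIP60 itself was lower by -0.91 ± 0.16 (adjusted p = 0.044), with 141, 137 and 148 FPKM after Tm in *bzip60-2* and 194, 231 and 203 in Col-0. *BIP3* was higher by 1.27 ± 0.14 (adjusted p = 0.023), with 693, 711 and 746 after Tm in *bzip60-2* and 339, 414 and 364 in Col-0. AT1G75000 (2.60), AT1G65690 (0.89), AT3G13310 (0.75) and *ZCF37* (0.64) were higher too. The bZIP28 peak at AT3G13310 was centred 1224 bases after the start of the gene, and that at *BIP3* 166 bases before it. Without matching by number 6 were called too, 4 of them the same, where 6.3% of all genes were called, so that 6 of 101 is near the background. In that fit *ZCF37* (adjusted p = 0.057) and AT3G13310 (adjusted p = 0.091) were not called. For the 6 genes the fold changes did not overlap between the genotypes, whichever Tm library was set against whichever DMSO library, and this held for 13 of the 15 genes of *bzip28-2*, all but AT5G13100 and *ZCF37*. The genes were chosen by calls on the same libraries, so this is a description and no further test. No share over all genes was set beside it. The count with matching was 7 without *bzip60-2* replicate 1, 3 without replicate 2, 0 without replicate 3 and 0 without any one of the Col-0 replicates. Gene-level FPKM of bZIP60 in *bzip60-2* ran from 69.6 to 147.7 after Tm and from 17.9 to 37.8 after DMSO. That of bZIP28 in *bzip28-2* ran from 10.4 to 28.6 after Tm and from 9.44 to 26.1 after DMSO. Both include sequence outside the insertion and do not check the labels.

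**Figure D5:**
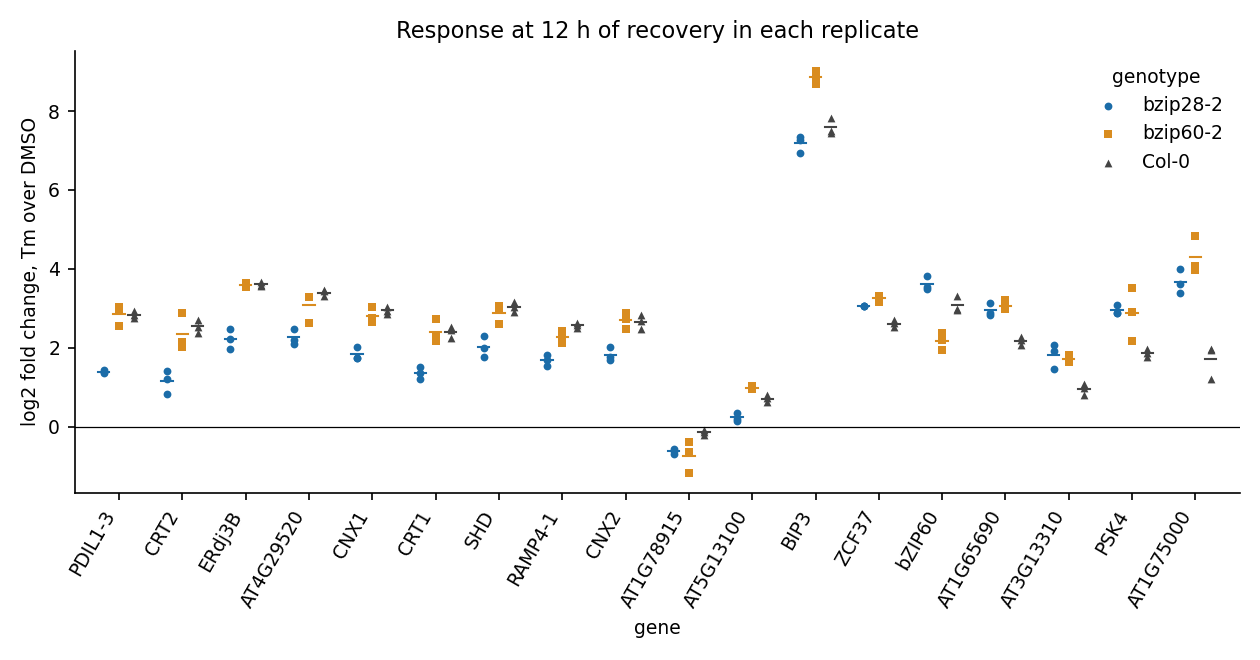
Log2 fold change (Tm over DMSO) of each replicate at 12 h of recovery in *bzip28-2*, *bzip60-2* and Col-0 for the 18 genes of shared promoter peaks called between a mutant and Col-0, with Tm and DMSO matched by replicate number and a bar at the mean of 3 replicates. From *PDIL1-3* to AT5G13100 the *bzip28-2* points lie below those of Col-0, and for *BIP3* the *bzip60-2* points lie above both.

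With matching by number, 0 of the 101 were called between a mutant and Col-0 at 0 and 24 h. At an unadjusted p under 0.05 with limma there were 25 at 0 h and 20 at 24 h for *bzip28-2*, and 31 and 20 for *bzip60-2*. The shares of all genes called were 0.00457% and 0% for *bzip28-2* and 0.00457% and 0.00457% for *bzip60-2*. Without matching, *bzip28-2* and Col-0 differed at 2 genes at 0 h and 8 at 24 h, all with a smaller response in *bzip28-2*, where 0.0366% and 1.1% of all genes were called. Those at 0 h were *ERdj3B* (-1.15 ± 0.13, SE) and *CRT1* (-1.12 ± 0.13), and those at 24 h included *CRT2* (-1.75 ± 0.19), *SHD* (-1.52 ± 0.25), *CNX1* (-1.37 ± 0.19), *PDIL1-3* (-1.33 ± 0.25), *CRT1* (-1.07 ± 0.19) and *CNX2* (-0.97 ± 0.19). For *bzip60-2* and Col-0 the counts without matching were 2 at 0 h and 5 at 24 h, where 0.0732% and 1.37% of all genes were called. The genes at 0 h were *PDIL2-3* (-1.21 ± 0.10), a disulfide isomerase gene, and AT3G51980 (-0.74 ± 0.09). At 24 h the response was lower in *bzip60-2* at *PSK4* (-1.60 ± 0.32), *ZCF37* (-0.87 ± 0.15), the p24 gene AT1G14010 (-0.63 ± 0.13) and AT4G30260 (-0.48 ± 0.10). It was higher at *GUT15* (0.71 ± 0.14). *ZCF37*, called higher in *bzip60-2* at 12 h with matching, was thus called lower at 24 h without it. The calls at 0 and 24 h thus depend on the matching.

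Between *bzip60-2* and *bzip28-2*, matching by number gave 0 calls at 0, 12 and 24 h with limma, with 32, 28 and 12 at an unadjusted p under 0.05, where 0.0915%, 0.0457% and 0.00457% of all genes were called. At 12 h the responses of *bzip60-2* and *bzip28-2* differed by 1.67 ± 0.15 at *BIP3* (adjusted p = 0.059), by 1.45 ± 0.14 at *PDIL1-3* (adjusted p = 0.072) and by 1.36 ± 0.15 at *ERdj3B* (adjusted p = 0.086). Without matching these genes were called, with an adjusted p of 0.0023 at *BIP3*, 0.022 at *PDIL1-3* and 0.0023 at *ERdj3B*. They were 3 of 7 genes called at 12 h, beside *CNX1*, *CNX2*, *CRT1* and bZIP60, and 6 were called at 0 h and 0 at 24 h, where 0.402%, 0.329% and 0.064% of all genes were called at 0, 12 and 24 h. The response at bZIP60 was lower in *bzip60-2* than in *bzip28-2* by -1.44 ± 0.15, and those of the other 6 genes at 12 h were higher in *bzip60-2*.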

How the data were processed

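The members, gene lists and regions were chosen with earlier results of these data known. Per the methods of the study, the authors trimmed RNA-seq reads with Cutadapt 1.8.1, mapped them to TAIR10 with TopHat2 2.0.14 and deposited FPKM from Cufflinks 1.3.0. ChIP-seq reads were mapped with Bowtie 1.1.2, and the deposited score of each peak is the signalValue of MACS2 2.1.2 against input, after the authors merged replicates by reproducibility and removed peaks shared with DMSO-treated seedlings. They kept a peak that overlapped one after DMSO where its p-value score was higher after Tm by a margin they set. No count test was possible on FPKM. The FPKM of a library summed to between 819066 and 918448, and its relative depth, read from 2593 scarce genes, ran from 0.834 to 1.27. No libraries were identical. Intervals of counts are not given, since reads were not used.

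The test took the 21864 of 34133 genes that passed 1 FPKM in any of 54 libraries. It was made with limma 3.58.1 (R 4.3.3), with a trend, after log2(FPKM + 1), and p-values were adjusted after Benjamini and Hochberg. Tm was compared with DMSO within a genotype and time-point. Genotypes were compared on log2 fold changes per replicate, Tm over DMSO of the same number. Replicates are biological replicates of randomly pooled seedlings per the methods of the study. A fit with a genotype by treatment term, which matches no libraries, was run beside it. Sequences, 300 bases at the centre of the peak with the highest bZIP28 score, came from TAIR10.1 with the coordinates of the files. Promoters were 250 bases before to 50 after each start site. Python 3.11.15, pandas 2.3.3 and matplotlib 3.10.9 were used, and the fits and searches were tested on simulated data.

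The genes named are listed genes with a shared peak, and, of the others with a single-copy peak in a promoter up to 1 kb, the 5 highest scores, the 5 largest changes in Col-0 at 12 h and up to 5 called per comparison of genotypes, and in repeated sequence the 3 highest scores. Others were chosen after their values were seen. The alternatives were other overlaps and scores, other limits for repeats and elements, a pseudocount of 0.1, median-ratio scaling, no filter, 1 fit over all libraries, other thresholds, other sets of genes, the replicate block and each replicate left out.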

Additional observations from a re-analysis of the deposited data

Results flagged for a closer look

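Responses to Tm at 12 h that differed between a mutant and Col-0 in limma on the replicate log2 fold changes are given here as differences of log2 fold change, mutant minus Col-0. In *bzip28-2* they were lower at *PDIL1-3* (-1.44), *CRT2* (-1.40), *ERdj3B* (-1.38), AT4G29520 (-1.14), *CNX1* (-1.12), *CRT1* (-1.05), *SHD* (-1.01), *RAMP4-1* (-0.89), *CNX2* (-0.83), AT1G78915 (-0.49) and AT5G13100 (-0.48). In *bzip28-2* they were higher at AT1G75000 (1.96), *PSK4* (1.08), AT1G65690 (0.77) and *ZCF37* (0.45). In *bzip60-2* the response was lower at bZIP60 (-0.91), and higher at AT1G75000 (2.60), *BIP3* (1.27), AT1G65690 (0.89), AT3G13310 (0.75) and *ZCF37* (0.64). AT1G75000, AT1G65690 and *ZCF37* differed from Col-0 in both mutants, in comparisons that share the Col-0 replicates. All these genes had replicate fold changes, matched by number, that did not overlap between the mutant and Col-0. Since the genes were chosen by calls on the same fold changes, this is a description and no further test. Without matching by number, *ZCF37* in both mutants, AT1G78915 and AT5G13100 in *bzip28-2* and AT3G13310 in *bzip60-2* were not called. For *bzip60-2* against Col-0 that fit called 6 of 101, near the 6.3% of all genes called.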

How the results depend on the processing

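Of the 328 shared peaks, 214 remained with bZIP60 peaks of the same time-point alone and 218 were among the bZIP28 peaks with the higher scores. Shared peaks in repeated sequence, 94, were 156 with any repeated window and 10 with all windows repeated. ERSE-I was in 48 regions with 1 mismatch, against 28. The samples with the same replicate number did not deviate together (27 pairs, correlations from -0.282 to 0.133, 5 over 0.1), so a shared number is not shown to pair them. Tm against DMSO was fitted without the block, and the genotype comparisons with it, as in the methods of the study. With the replicate block the genes of shared peaks called in Col-0 numbered 1 at 0 h (43 without it), 61 at 12 h and 54 at 24 h. Without the block, the genotype comparisons at 0, 12 and 24 h gave 2, 22 and 8 for *bzip28-2* against Col-0, 2, 6 and 5 for *bzip60-2* against Col-0, and 6, 7 and 0 for *bzip60-2* against *bzip28-2*. At an unadjusted p under 0.01 they gave 14, 36 and 11, 15, 10 and 9, and 14, 15 and 6 in the same order. With no filter on low values, 12 h gave 9 for *bzip28-2* and 0 for *bzip60-2* against Col-0, and 24 h gave 1 between the mutants. Median-ratio scaling gave 1 between the mutants at 12 h. With 1 replicate left out, the counts in Col-0 ran from 16 to 39 at 0 h, 59 to 62 at 12 h and 53 to 59 at 24 h. Those of *bzip28-2* against Col-0 at 12 h ran from 0 to 2, those of *bzip60-2* against Col-0 at 12 h from 0 to 7, and those between the mutants at 0 h from 0 to 1. All other comparisons of genotypes gave 0 to 0. The causes were not tested. Peak lists merged over 2 replicates give no error for a score, and scarce genes are limited by depth, which is known in relative terms only.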
